A study of Mus musculus with 18 samples.

Results

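The comparison described here is ginsenoside Rc at 20 µM against vehicle control in C2C12 myotubes without dexamethasone, taken over all genes. Its members were chosen by the titles of the libraries: 3 control libraries and 3 libraries of 20 µM ginsenoside Rc, 6 of the 18 in the series. C2C12 is a mouse myoblast line, and the myoblasts had been kept in medium with 2% horse serum for 5 days so that they fused into myotubes. Control cultures received 0.1% DMSO for 36 h and treated cultures 20 µM ginsenoside Rc for 36 h. Where a second dose is given it is 10 µM for 36 h (3 libraries), compared with the same controls. Where dexamethasone is given, it is 200 µM for 24 h after 12 h with either 0.1% DMSO or 20 µM ginsenoside Rc (3 libraries each). The last group had 200 µM dexamethasone for 24 h after 12 h with 10 µM ginsenoside Rc (3 libraries). It entered the model of all 18 libraries and the shares of counts by library, and is not compared here. The DMSO content of the cultures with ginsenoside is not stated in the labels. All groups come from 1 cell line, and no label ties the libraries of a group to separate cultures, so a p-value reflects library-to-library spread that may be technical.

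Ginsenoside Rc is a triterpene saponin of ginseng root. C2C12 myotubes are immature muscle fibres: they express embryonic and perinatal myosins, build sarcomeres, and still secrete collagens, laminins and other matrix proteins. They also read paracrine signals such as Wnt proteins, which act through beta-catenin and switch on their own inhibitors (Axin2, Nkd2, Notum), and endothelin-1, a vasoconstrictor peptide.

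The 6 libraries held 36523062 to 44021619 expected counts each. Of 9 myotube markers all were measured, and their summed level was 16095 to 16522 CPM (counts scaled to a common library size) in controls and 17185 to 18314 CPM at 20 µM. Undifferentiated myoblast markers summed to 725 to 726 CPM in controls and 707 to 753 CPM at 20 µM. Endothelial and blood markers summed to 2.76 to 3.54 CPM over the 6 libraries, with Tie1 at 0. Fat cell markers summed to 77.6 to 89.5 CPM in controls and 72.4 to 83.2 CPM at 20 µM, with Cfd and Plin1 at 0 in all 6, Car3 between 54.1 and 72.0 CPM and Pparg between 3.52 and 5.15 CPM. Nerve and glia markers summed to 30.1 to 32.0 CPM in controls and 24.5 to 29.3 CPM at 20 µM, every treated library below every control. Osteoblast and chondrocyte markers summed to 1207 to 1286 CPM in controls and 1249.5 to 1438 CPM at 20 µM, with Dlx5 at 0. Most of that sum was Spp1, at 1114 to 1354 CPM over the 6 libraries. Fibroblast markers summed to 5700.0 to 6208 CPM in controls and 4799 to 6151 CPM at 20 µM, with Tcf21 at 0. Smooth muscle markers summed to 6352 to 6622 CPM in controls and 6074 to 7046 CPM at 20 µM, most of it from Des and Acta2. Des, also counted below as a sarcomere gene, was at 3842 to 4128 CPM in controls and 3901 to 4425 CPM at 20 µM. Acta2 was at 1836 to 2256 CPM over the 6 libraries, while Myh11 was at most 0.177 CPM and Cnn1 at most 2.34 CPM. The highest smooth muscle and the lowest fibroblast sum both came from replicate 2 of the 20 µM group. The fibroblast markers did not move together in that library. Col3a1 was at 2727 CPM in it, against 3492 to 3950.0 CPM in the others, and Gsn and Mfap5 were also lowest in it. Dcn was highest in it (230 CPM against 171 to 197 CPM), as were Pdgfrb, Pi16 and Lum. The part of these other markers in the results was not tested. That library also stands apart in its mitochondrial and ribosomal protein counts, so results that depend on it are given with it and without it.

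At 20 µM 16 genes passed an adjusted p of 0.05, 2 of them higher (0.013%) and 14 lower (0.0907%), out of 15436 genes tested (0.104%; edgeR quasi-likelihood test over 18 libraries). The 2 that rose were Myh8, the perinatal myosin heavy chain, and Fbln7, the matrix glycoprotein fibulin 7. The 14 that fell were the collagens Col23a1 and Col18a1, the laminin chain Lamb3, the secreted proteins Edn1, Lrrc17 and Plat, the surface proteins Nt5e, Ly6c2 and Tspan8, the vesicle protein Sv2b, the actin cytoskeleton genes Cnn2 and Rflnb, the intracellular protease inhibitor Serpinb6b and the Wnt feedback gene Axin2. Edn1 was the only gene of the 16 to change by more than 2-fold. In all 16 the 3 treated libraries lay wholly above or wholly below the 3 controls, which follows largely from their selection on the same libraries. The share of all genes tested without overlap was 11.7% (4.68% above and 7.05% below). At an unadjusted p below 0.05 there were 1434 genes (9.29%), 624 higher (4.04%) and 810 lower (5.25%).

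Without replicate 2 of the 20 µM group 44 of 15618 genes passed (0.282%), 7 higher and 37 lower, and 1218 had an unadjusted p below 0.05 (7.8%). Of the 16 genes 15 passed again, the exception being Sv2b (adjusted p = 0.083), and 29 were added. The number of calls depended on single libraries: it was 24 without 20 µM replicate 1, 7 without 20 µM replicate 3, and 5, 7 and 6 without control replicates 1, 2 and 3. The 5 genes that passed whichever of the 6 libraries was left out were Myh8, Col23a1, Edn1, Lrrc17 and Lamb3. When only the 6 compared libraries entered the fit, edgeR called 0 genes, with 579 at an unadjusted p below 0.05, while DESeq2 on all libraries called 101, 30 higher and 71 lower, including all 16.

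**Figure D1:**
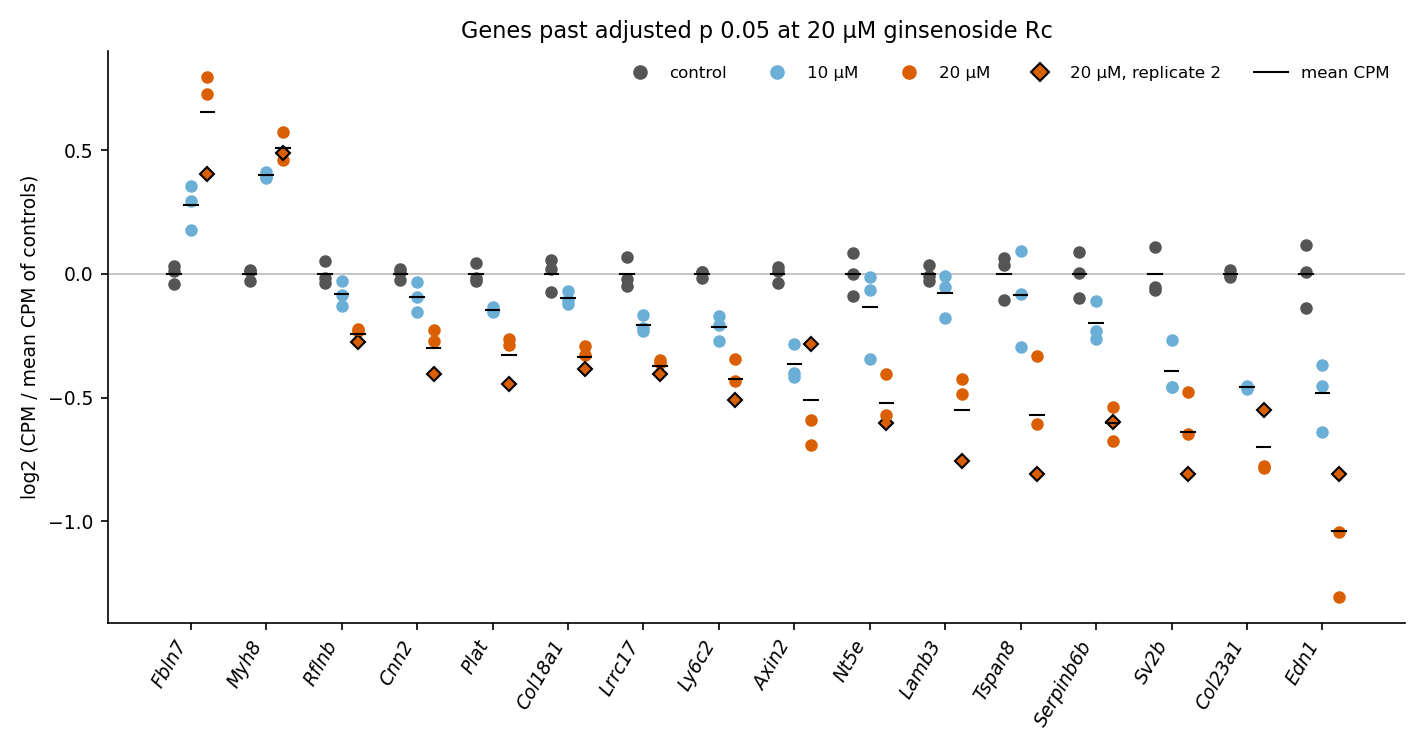
Levels of the 16 genes past the threshold in each library without dexamethasone, as log2 of CPM over the mean CPM of the controls (vertical axis), by gene (horizontal axis); grey points are controls, blue 10 µM, orange 20 µM, the outlined diamond is 20 µM replicate 2 and short bars are means of CPM. In every gene the 20 µM points sit on one side of the controls, and the diamond is at the near edge of its group in Fbln7, Axin2, Col23a1 and Edn1.

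Myh8 is 1 of the myosin heavy chain genes clustered on mouse chromosome 11 (ENSMUSG00000055775, chromosome 11, 67277124 to 67308634 in GRCm38, protein coding). Its level was 511, 525 and 526 CPM in the 3 controls and 717, 729 and 774 CPM at 20 µM. The highest control was well below the lowest treated library, and 20 µM replicate 2 lay between the other treated libraries. The log2 fold change was 0.51 ± 0.05 (SE; 95% interval 0.40 to 0.62; adjusted p = 0.00033), and 0.52 ± 0.05 without replicate 2. In bulk samples a different number of cells of a type and a different amount of RNA per cell cannot be told apart. Close paralogs share sequence with Myh8, and the counting divides such reads by estimation.

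The promoters of 3 genes are shown because these genes had the smallest p-values of the comparison: Myh8, Col23a1 and Edn1. Each line gives the 250 bases before the RefSeq start on the plus strand of GRCm38.p6, 5′ to 3′ (chr11:67276874-67277123 for Myh8, chr11:51289670-51289919 for Col23a1 and chr13:42301226-42301475 for Edn1).
Myh8: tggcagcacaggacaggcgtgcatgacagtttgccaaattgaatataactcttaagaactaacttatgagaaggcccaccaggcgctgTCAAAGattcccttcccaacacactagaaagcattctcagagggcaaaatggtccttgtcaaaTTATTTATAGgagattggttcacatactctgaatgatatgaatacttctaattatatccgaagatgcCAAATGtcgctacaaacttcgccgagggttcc
Col23a1: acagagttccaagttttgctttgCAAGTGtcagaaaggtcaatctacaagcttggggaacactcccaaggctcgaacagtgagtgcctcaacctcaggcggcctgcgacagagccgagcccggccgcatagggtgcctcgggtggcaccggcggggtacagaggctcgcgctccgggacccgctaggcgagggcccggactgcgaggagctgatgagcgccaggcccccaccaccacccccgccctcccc
Edn1: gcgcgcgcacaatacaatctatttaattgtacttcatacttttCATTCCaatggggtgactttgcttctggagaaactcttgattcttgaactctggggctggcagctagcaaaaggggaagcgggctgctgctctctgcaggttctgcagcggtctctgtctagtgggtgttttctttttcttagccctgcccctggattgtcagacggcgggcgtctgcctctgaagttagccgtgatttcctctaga
Capitals mark matches on either strand to an E-box (CANNTG, read by myogenic factors), a TEAD element (GGAATG), a TCF/LEF core (CTTTGA, the Wnt element) or the MEF2 element of muscle genes, and no 2 matches overlap. Myh8 held 1 E-box, 1 TCF/LEF core and 1 MEF2 element, Col23a1 1 E-box, and Edn1 1 TEAD element. Of 27025 promoters of the same length, 66.1% held an E-box, 12.6% a TEAD element, 14.1% a TCF/LEF core and 3.03% a MEF2 element. Among the 15 of the 16 genes with a promoter in the table the numbers were 8, 2, 2 and 1. The MEF2 element was added to the search after the Myh8 sequence had been seen, and a match describes letters only.

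The other myosin heavy chains moved less than Myh8. Of 9 tested, Myh8 was called, 8 lay above 0, and the median log2 change was 0.10 (0.12 without replicate 2), against -0.01 over all genes. Of all genes 47.2% lay above 0. Myh4, the fast IIb chain, was at 1026, 992 and 968 CPM in controls and 1169, 1174 and 1214 CPM at 20 µM. Its groups did not overlap, but its change of 0.25 ± 0.07 did not pass (adjusted p = 0.21). Myh1, the fast IIx chain, was at 3874, 3805 and 3774 CPM against 4061, 3987 and 4255 CPM, without overlap, a log2 difference of 0.10 ± 0.07 (adjusted p = 0.64). Myh3, the embryonic chain and the most abundant of these by CPM, was at 4597, 4679 and 4718 CPM against 4425, 5254 and 4676 CPM, with overlapping groups. The slow chain Myh7 and the fast IIa chain Myh2 differed by 0.09 ± 0.08 and 0.06 ± 0.10, also with overlapping groups.

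Genes of the sarcomere and of calcium release leaned the same way as Myh8 without passing singly. Of 47 sarcomere genes other than heavy chains 0 passed in edgeR with all libraries, 11 were higher at an unadjusted p below 0.05 and 0 lower, beside 4.04% and 5.25% of all genes, and the median was 0.08. Without replicate 2 the unadjusted counts were 15 and 1 (background 2.69% and 5.15%), the median was 0.09, and Myl2 passed. Myl2, the regulatory light chain of slow and cardiac muscle, was at 38.7, 38.5 and 36.2 CPM in controls and 52.5, 36.4 and 53.6 CPM at 20 µM. Replicate 2 lay within the control range and the other treated libraries were well above it, and the difference was 0.33 ± 0.11 with it and 0.49 ± 0.06 without it (adjusted p = 0.34 and 0.00023). Tmod1, which caps thin filaments, and Mypn, a Z-disc protein, had the smallest p of the list with all libraries. Tmod1 was at 187, 180.3 and 181 CPM against 205, 257 and 202 CPM, and replicate 2 was its highest library by far (log2 difference 0.28 ± 0.07, adjusted p = 0.16, and 0.15 without it). Acta1, the skeletal actin, was at 5995, 6214 and 5757 CPM against 6537, 5862 and 6158 CPM, with overlapping groups.

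Among 19 genes of excitation-contraction coupling 0 passed with all libraries, and the median was 0.09 (0.06 without replicate 2). At an unadjusted p below 0.05, 7 were higher and 0 lower, beside 4.04% and 5.25% of all genes. Atp2a1, the fast calcium pump SERCA1, was at 1603, 1625 and 1572 CPM against 1829, 1759 and 1857 CPM. All treated libraries were above all controls, and the gene passed only without replicate 2 (log2 difference 0.18 ± 0.05, adjusted p = 0.18, against 0.20 ± 0.04 and 0.049). Cacna2d1, a subunit of the calcium channel that senses depolarisation, was at 372, 357 and 380.1 CPM against 412, 443 and 423 CPM, again without overlap (adjusted p = 0.093, and 0.095 without replicate 2). Casq2, a calcium store protein, differed by 0.13 ± 0.05.

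Col23a1, a collagen anchored in the plasma membrane, fell at nearly constant levels within each group (ENSMUSG00000063564, chromosome 11, 51289920 to 51583918). It was at 18.6, 18.3 and 18.4 CPM in controls and 10.8, 12.6 and 10.7 CPM at 20 µM. Replicate 2 was the highest treated library and still far below every control. The log2 change was -0.70 ± 0.08 (95% interval -0.86 to -0.54; adjusted p = 0.00041), and -0.78 ± 0.07 without replicate 2. Col18a1, a basement membrane collagen that releases endostatin (ENSMUSG00000001435, chromosome 10, 77052178 to 77166548), went from 129, 126 and 118 CPM to 99.5, 95.4 and 102 CPM. The treated libraries were close together and below all controls (log2 change -0.33 ± 0.06, adjusted p = 0.0498). The Col18a1 call was lost when any 1 control, or 20 µM replicate 1 or 3, was left out, with adjusted p from 0.064 to 0.27.

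Across the 29 collagen genes tested these were the only 2 that passed, both lower. Of the 29, 6 lay above 0, beside 47.2% of all genes, and the median was -0.16 (-0.10 without replicate 2). At an unadjusted p below 0.05, 2 collagens were higher and 7 lower, beside 4.04% and 5.25% of all genes. Without replicate 2 these were 2 and 5, beside 2.69% and 5.15%. The abundant fibrillar collagens did not separate the groups. Col1a1 was at 1280.2, 1393 and 1225 CPM in controls against 1067, 1103 and 1234 CPM, Col1a2 at 1798, 1844 and 1715 CPM against 1563, 1372 and 1769 CPM, and Col3a1 at 3492, 3871 and 3631 CPM against 3546, 2727 and 3950.0 CPM. In Col1a2 and Col3a1 replicate 2 was the lowest of the 6 libraries, and without it the log2 difference in Col3a1 was 0.03. Col14a1, a collagen that sits on fibril surfaces, went the other way: it was at 4.16, 3.95 and 4.71 CPM against 5.85, 5.40 and 7.21 CPM, all treated libraries above all controls. The log2 difference was 0.53 ± 0.13 with all libraries, which did not pass (adjusted p = 0.12), and 0.61 ± 0.13 without replicate 2, which did (0.034). Col14a1 was chosen after its values were seen.

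Lamb3, the beta-3 chain of a laminin of epithelial basement membrane, fell most clearly among laminins, integrins and basement membrane genes (ENSMUSG00000026639, chromosome 1, 193207699 to 193343878). Its level was 50.7, 53.1 and 51.4 CPM in controls and 38.5, 30.7 and 36.9 CPM at 20 µM. Replicate 2 was the lowest treated library, and even the highest treated library was below all controls (log2 change -0.55 ± 0.07, adjusted p = 0.002; -0.46 ± 0.06 without replicate 2). Of the 31 genes in that list 1 passed, and the median was -0.08 (-0.07 without replicate 2). At an unadjusted p below 0.05, 2 were higher and 5 lower, beside 4.04% and 5.25% of all genes. Dag1, the dystroglycan that links laminin to the fibre surface, was at 1237, 1194 and 1266 CPM against 1283, 1741 and 1349.8 CPM, with replicate 2 far above the other 5 libraries.

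Fbln7 rose from 8.18, 7.88 and 8.29 CPM to 13.4, 10.7 and 14.1 CPM (ENSMUSG00000027386, chromosome 2, 128862981 to 128897034). Replicate 2 was the lowest treated library and was above every control (log2 change 0.66 ± 0.11, adjusted p = 0.027; 0.76 ± 0.10 and 0.00016 without replicate 2). The call was lost when any 1 control, or 20 µM replicate 1 or 3, was left out, with adjusted p from 0.06 to 0.22. It was the only gene to pass of 37 other matrix and matricellular genes. Of these 13 were lower and 2 higher at an unadjusted p below 0.05, beside 5.25% and 4.04% of all genes. The median of that list was -0.09 with and without replicate 2, and 9 of 37 lay above 0 in both fits. Of all genes 47.2% lay above 0 with replicate 2 and 48.0% without it. Postn, or periostin, a matricellular protein of growing and injured tissue, was at 396, 381 and 406 CPM against 312, 358 and 308 CPM. All treated libraries were below all controls, with replicate 2 nearest to them, and Postn fell in the fit without replicate 2 (-0.35 ± 0.04, adjusted p = 0.00013) but did not pass with it (-0.27 ± 0.05, 0.066). Among the most abundant members Sparc was at 3673, 3636 and 3613 CPM against 3433, 2834 and 3388 CPM, a log2 difference of -0.18 ± 0.07 that was -0.09 without replicate 2. Fn1, fibronectin, was at 6593, 6098 and 5942 CPM against 4625, 6106 and 5902 CPM, with replicate 2 inside the control range.

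Lrrc17, which encodes a secreted leucine-rich repeat protein (ENSMUSG00000039883, chromosome 5, 21543559 to 21575904), was at 74.2, 75.5 and 80.3 CPM in controls and 59.7, 58.0 and 60.2 CPM at 20 µM. The treated libraries were close together and below all controls (log2 change -0.37 ± 0.05, adjusted p = 0.0015; -0.35 ± 0.05 without replicate 2). Plat, the tissue plasminogen activator (ENSMUSG00000031538, chromosome 8, 22757727 to 22782844), fell from 84.7, 89.0 and 85.5 CPM to 70.8, 63.5 and 72.0 CPM. Replicate 2 was the lowest library (log2 change -0.33 ± 0.06, adjusted p = 0.045; -0.28 ± 0.05 and 0.023 without it). Leaving out any 1 control or 20 µM replicate 3 took the Plat call away (adjusted p from 0.072 to 0.27).

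Edn1, the precursor of endothelin-1, showed the largest change among the 16 genes, at a low level (ENSMUSG00000021367, chromosome 13, 42301476 to 42307990). It was at 3.60, 3.33 and 3.02 CPM in controls and 1.61, 1.89 and 1.34 CPM at 20 µM. Every treated library was below every control, with replicate 2 nearest to them. The log2 change was -1.04 ± 0.13 (95% interval -1.31 to -0.77; adjusted p = 0.0014), and -1.16 ± 0.15 without replicate 2. Nt5e encodes the surface enzyme CD73, which makes adenosine outside the cell (ENSMUSG00000032420, chromosome 9, 88327197 to 88372092). It went from 12.6, 11.1 and 11.9 CPM to 8.96, 7.81 and 7.99 CPM, without overlap (log2 change -0.52 ± 0.08, adjusted p = 0.019; -0.48 ± 0.09 without replicate 2). Nt5e lost its call without control replicate 1 (0.12), control replicate 3 (0.10) or 20 µM replicate 3 (0.10). The list of endothelin and extracellular purine genes, 21 tested, held both of these calls and had a median of -0.05 (-0.02 without replicate 2). Ece1, the enzyme that cleaves the endothelin precursor, was at 179, 168 and 179.6 CPM against 176, 206 and 181 CPM, with overlapping groups, and P2rx4, an ATP-gated channel, differed by 0.00 ± 0.06.

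Axin2 is switched on by beta-catenin and in turn promotes its breakdown, so its RNA is a common readout of Wnt signalling (ENSMUSG00000000142, chromosome 11, 108920349 to 108950783). It was at 11.3, 11.7 and 11.8 CPM in controls and 7.18, 9.54 and 7.69 CPM at 20 µM. All treated libraries were below all controls, and replicate 2 was the highest of them. The change was -0.51 ± 0.09 (adjusted p = 0.045) with all libraries and -0.64 ± 0.09 (0.00023) without replicate 2. The call with all libraries was lost when any 1 control, or 20 µM replicate 1 or 3, was left out, with adjusted p from 0.074 to 0.24. Notum, another inhibitor made in response to Wnt, did not fall, at a mean of 0.41 CPM in both groups (0.02 ± 0.25, and 0.22 without replicate 2). Nkd2, a further such inhibitor, was at 33.6, 31.7 and 32.8 CPM against 23.7, 32.3 and 22.8 CPM. Replicates 1 and 3 were well below the controls and replicate 2 lay among them, and Nkd2 fell only in the fit without it (-0.49 ± 0.06, adjusted p = 0.00013, against -0.32 ± 0.09 and 0.27).

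Lgr5, a receptor for the Wnt amplifier R-spondin, showed the same arrangement at a low level and was named after its values were seen. It was at 4.42, 3.95 and 3.32 CPM in controls and 1.89, 3.51 and 1.95 CPM at 20 µM, with replicate 2 inside the control range and the other treated libraries below all controls. It passed only without replicate 2 (-1.02 ± 0.18, adjusted p = 0.0075, against -0.68 ± 0.21 and 0.29). The related receptor Lgr6 was at 20.5, 16.9 and 19.9 CPM against 15.3, 16.6 and 17.1 CPM, with overlapping groups (-0.23 ± 0.09). Wnt10a, a ligand, was at 99.3, 99.8 and 97.1 CPM against 87.3, 78.8 and 81.2 CPM, without overlap and without passing (adjusted p = 0.11). Of 43 Wnt genes tested 1 passed with all libraries and 3 without replicate 2, in each case lower. At an unadjusted p below 0.05 the list held 11 lower and 2 higher genes in both fits, with a median of -0.05 and -0.01. The shares of all genes were 5.25% lower and 4.04% higher, and 5.15% and 2.69% without replicate 2. Ctnnb1, beta-catenin itself, was at 384, 401 and 386 CPM against 415, 305 and 405 CPM, with replicate 2 below all controls and the other treated libraries above them.

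Of the other 6 called genes, Serpinb6b, an intracellular serpin with near-identical neighbours (ENSMUSG00000042842, chromosome 13, 32965209 to 32979067), went from 6.26, 5.92 and 5.50 CPM to 4.06, 3.89 and 3.69 CPM (log2 change -0.60 ± 0.09, adjusted p = 0.006), and its call was lost without control replicate 1 (0.07) or 20 µM replicate 3 (0.06). Ly6c2, a lipid-anchored surface protein with close paralogs (ENSMUSG00000022584, chromosome 15, 75108158 to 75111970), went from 35.2, 35.2 and 34.6 CPM to 26.0, 24.6 and 27.6 CPM (log2 change -0.43 ± 0.07, adjusted p = 0.016), and did not pass when any 1 control was left out (0.097 to 0.11). Both had all treated libraries below all controls, with replicate 2 inside the range of its group for Serpinb6b and lowest for Ly6c2.

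Cnn2, calponin 2, which binds actin filaments (ENSMUSG00000004665, chromosome 10, 79988584 to 79996062), was at 213, 220.1 and 218 CPM in controls and 185, 164 and 180.0 CPM at 20 µM (log2 change -0.30 ± 0.05, adjusted p = 0.034). Rflnb, or refilin B, a partner of the actin crosslinker filamin (ENSMUSG00000020846, chromosome 11, 76019194 to 76027782), was at 79.3, 75.6 and 74.5 CPM against 65.2, 63.1 and 65.6 CPM (log2 change -0.24 ± 0.04, adjusted p = 0.045). Tspan8, a tetraspanin (ENSMUSG00000034127, chromosome 10, 115816832 to 115849893), was at 26.3, 25.7 and 23.3 CPM against 19.9, 14.3 and 16.5 CPM (log2 change -0.57 ± 0.10, adjusted p = 0.045). In these 3 genes the treated libraries were below all controls and replicate 2 was the lowest. Sv2b, a vesicle glycoprotein (ENSMUSG00000053025, chromosome 7, 75114894 to 75309262), was at 3.44, 3.88 and 3.47 CPM against 2.59, 2.06 and 2.30 CPM, again without overlap and with replicate 2 lowest (log2 change -0.63 ± 0.12, adjusted p = 0.045). All 4 calls were lost when any 1 control or 20 µM replicate 3 was left out, and that of Rflnb without replicate 1 and of Sv2b without replicate 2 as well. Their highest adjusted p over these fits was 0.22 for Cnn2, 0.22 for Rflnb, 0.24 for Tspan8 and 0.28 for Sv2b.

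Genes of the integrated stress response, which cells induce through ATF4 when amino acids run short or proteins misfold, had a negative log2 difference in 31 of 38 members, against 8140 of all 15436 genes. With all libraries 0 of 38 passed in edgeR, and 15 were lower at an unadjusted p below 0.05 (5.25% of all genes) and 0 higher. In 12 of 38 all treated libraries lay below all controls (7.05% of all genes). The median was -0.10 (-0.09 without replicate 2, with 11 lower and 0 higher). Without replicate 2 Aldh1l2 and Chac1 fell. Aldh1l2, a mitochondrial folate enzyme, was at 42.4, 44.3 and 45.8 CPM in controls and 34.2, 36.9 and 35.0 CPM at 20 µM. All treated libraries were below all controls (-0.32 ± 0.06, adjusted p = 0.062; -0.35 ± 0.06 and 0.0075 without replicate 2). Chac1, which degrades glutathione, was at 24.7, 24.9 and 24.4 CPM against 18.9, 20.8 and 20.7 CPM, again without overlap (-0.29 ± 0.06, 0.066; -0.32 ± 0.06 and 0.021 without replicate 2). The abundant chaperones of the same list, Hspa5 at 768, 773 and 783 CPM against 805, 644 and 785 CPM and Calr at 1012, 1082 and 1049.7 CPM against 1037, 1181 and 1080.3 CPM, overlapped between groups.

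Receptors, cytokines and chemokines of other pathways passed only without replicate 2. Tgfbr2, the type II receptor for TGF-beta, was at 377, 359.9 and 378 CPM in controls and 330.5, 355 and 305 CPM at 20 µM. All treated libraries were below the controls, replicate 2 only just (-0.17 ± 0.05, adjusted p = 0.23; -0.23 ± 0.04 and 0.01 without it). Il33, a cytokine of the interleukin-1 family, was at 48.3, 45.8 and 49.7 CPM against 38.9, 49.3 and 36.0 CPM, and Tnfsf9, the ligand of 4-1BB, at 18.2, 18.2 and 17.9 CPM against 12.6, 15.7 and 11.4 CPM. Replicate 2 was within the control range for Il33 and the treated library nearest to the controls for Tnfsf9, and both fell without it (-0.35 ± 0.06 and -0.59 ± 0.10, adjusted p = 0.0037 and 0.0043). With all libraries the differences were -0.21 ± 0.08 and -0.45 ± 0.11 (0.47 and 0.16). Cxcl12, a chemokine for muscle progenitors, rose without replicate 2: it was at 72.9, 69.0 and 75.5 CPM against 90.7, 84.1 and 85.1 CPM (0.28 ± 0.06, adjusted p = 0.032; 0.26 ± 0.06 and 0.098 with all libraries).

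Among 40 genes of TGF-beta, BMP and activin signalling 2 were higher and 8 lower at an unadjusted p below 0.05 (median -0.03, and -0.05 without replicate 2). Of all genes 4.04% were higher and 5.25% lower, the shares to set beside the other lists of this paragraph as well. Inhba, the activin A subunit, was at 28.4, 26.7 and 28.3 CPM against 20.3, 19.3 and 23.3 CPM, without overlap and without passing (adjusted p = 0.18). Among 31 inflammatory and NF-kB genes 2 were higher and 6 lower (median -0.04). In edgeR 0 genes of these 2 lists passed with all libraries. Of 32 genes of MAPK feedback and the immediate early response 0 were higher and 5 lower, with a median of -0.03, or -0.08 without replicate 2, and 0 passed in either edgeR fit. The 30 YAP and TEAD targets, whose 1 call was Nt5e, had 3 higher and 8 lower and a median of -0.03 (-0.05 without replicate 2).

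The remaining genes that passed only without replicate 2 belonged to no single list. They include Dynap, which binds dynactin, at 30.0, 30.0 and 29.5 CPM in controls against 21.2, 30.2 and 19.5 CPM, and Mrgprf, an orphan receptor, at 28.3, 27.0 and 26.3 CPM against 19.7, 30.3 and 19.3 CPM. In both, replicate 2 was above all controls and the other treated libraries were below them (-0.55 ± 0.07 and -0.48 ± 0.07, adjusted p = 0.00013 and 0.0014; -0.34 ± 0.11 and -0.24 ± 0.13 with all libraries). Scara5, a ferritin receptor, was at 8.74, 8.17 and 8.16 CPM against 10.8, 8.80 and 11.5 CPM, all treated libraries above all controls, and rose without replicate 2 (0.42 ± 0.07, adjusted p = 0.0043; 0.31 ± 0.08 and 0.18 with all libraries). Chosen after their values were seen, others were Cyp26b1, which breaks down retinoic acid (-0.46 ± 0.07), the Dishevelled-binding gene Dact1 (-0.48 ± 0.10), the osteoprotegerin gene Tnfrsf11b (-0.64 ± 0.13), Pck2, Gng2, Ccbe1, Spock2, C1qtnf1, Clmn, Serpinb6c, Nav3, Epb41l4a and Filip1l, all lower. Filip1l was the only gene of the 44 with the opposite sign in the 2 fits: it was at 107, 99.2 and 114 CPM in controls and 85.5, 155 and 82.3 CPM at 20 µM, which gave 0.01 ± 0.17 with replicate 2 and -0.35 ± 0.06 without it.

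**Figure D2:**
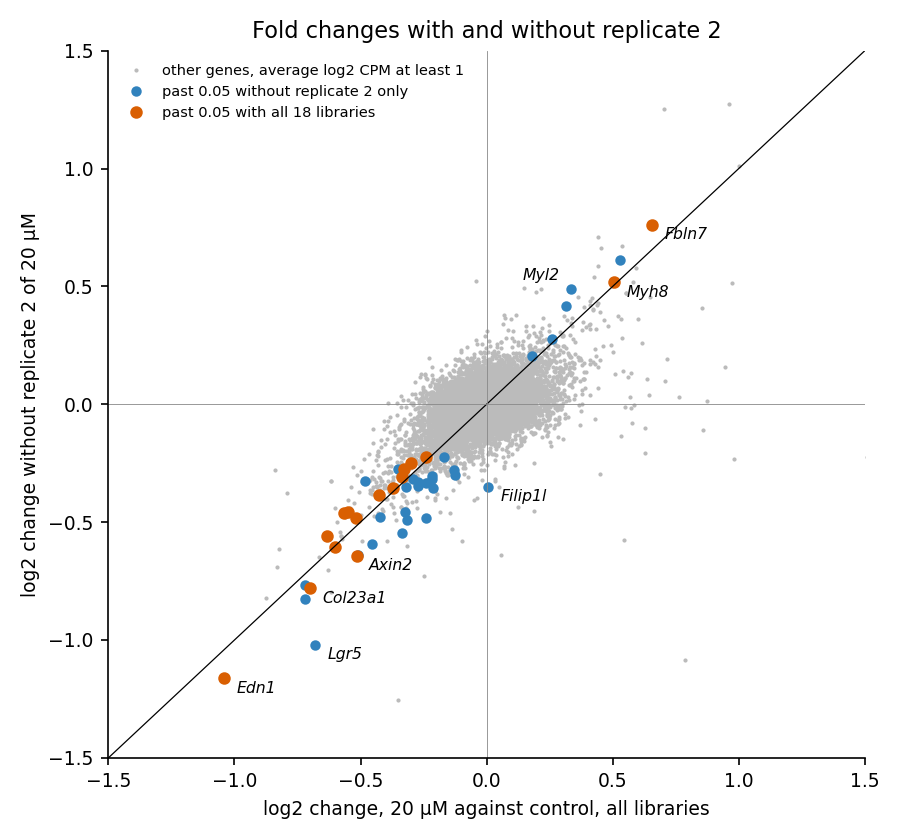
Log2 fold change of 20 µM against control with all libraries (horizontal axis) and without 20 µM replicate 2 (vertical axis) for genes averaging 1 log2 CPM or more; orange points passed with all 18 libraries, blue points only without replicate 2, grey points are the other genes, the diagonal marks equal values, and 10 of 11786 genes lie outside the axes. The orange points follow the diagonal, while blue points such as Lgr5 (-0.68 and -1.02), Myl2 (0.33 and 0.49) and Filip1l (0.01 and -0.35) lie off it, farther from 0 on the vertical axis.

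Replicate 2 of the 20 µM group differed from its group in the make-up of its RNA. Mitochondrially encoded genes took 2.79% of its counts, against 1.57% and 1.27% in replicates 1 and 3, 1.26% to 1.38% in controls and at most 1.91% in any other library of the series. Cytosolic ribosomal protein genes took 1.99%, against 2.87% and 2.85% in replicates 1 and 3 and 2.66% to 2.96% in controls. Long non-coding RNA took 3.06%, against 2.12% to 2.32% in the other libraries without dexamethasone. With this library the mitochondrial share was 1.88% ± 0.805 (SD, n = 3) at 20 µM and 1.34% ± 0.0717 in controls, and the ribosomal protein share 2.57% ± 0.506 and 2.84% ± 0.156. The long non-coding share was 2.53% ± 0.454 at 20 µM and 2.17% ± 0.0505 in controls, with all treated libraries above all controls. The two-sided exact permutation test gave p = 0.3, p = 0.5 and p = 0.1 for the 3 shares, where 3 against 3 cannot go below 0.1. Without it the mitochondrial share was 1.42%, the ribosomal protein share 2.86% and the long non-coding share 2.27% at 20 µM.

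**Figure D3:**
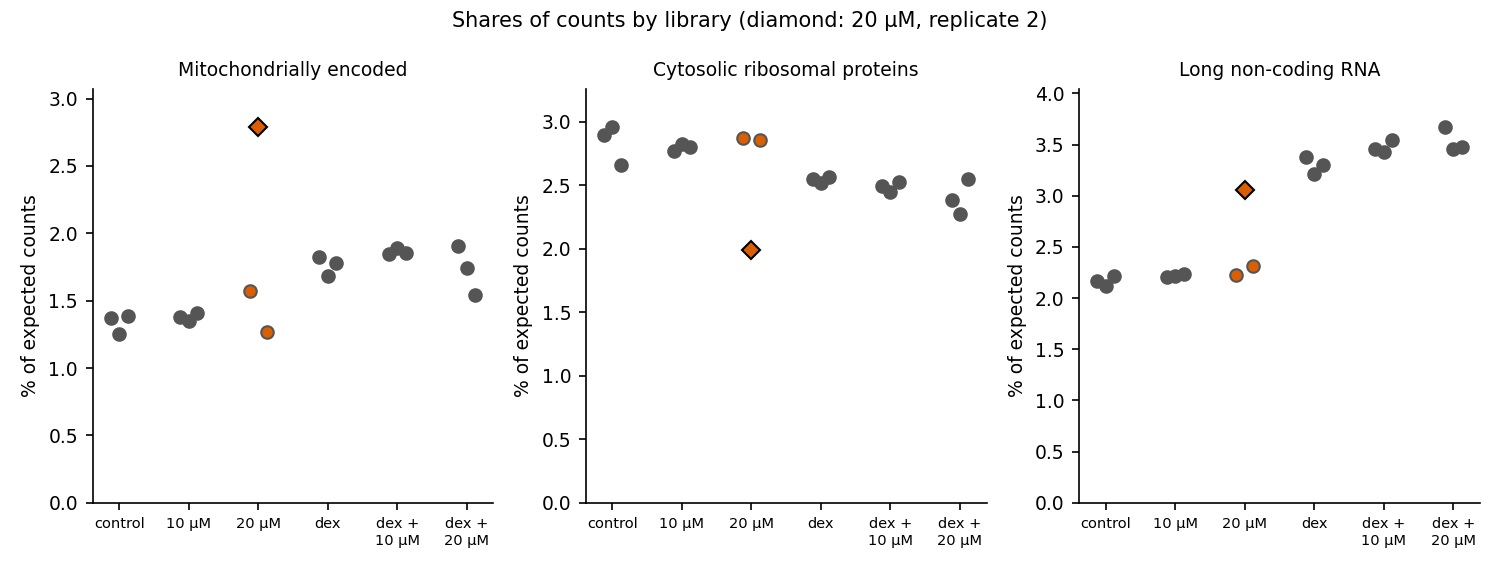
Share of each library's expected counts, in percent, from mitochondrially encoded genes, cytosolic ribosomal protein genes and long non-coding RNA (3 panels, vertical axes starting at 0), by group (horizontal axis); points are libraries, orange for 20 µM without dexamethasone, and the diamond is 20 µM replicate 2. The diamond is the highest library of the series in the first panel (2.79%) and the lowest in the second (1.99%), while the other orange points (1.57% and 1.27%, then 2.87% and 2.85%) lie close to the controls.

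Counted gene by gene, 737 of 9611 well-expressed genes in that library were more than 1.5-fold away from the mean of the other libraries of its group, 222 higher and 515 lower. The number was 78 for replicate 1 and 66 for replicate 3, whose reference includes replicate 2, and 4 to 14 in the controls. The 5 genes farthest above replicates 1 and 3 were mt-Nd4, mt-Nd6, mt-Atp8, Gm29216 and Gm15920, and the 5 farthest below were mt-Nd3, mt-Co2, Atp5k, Gm2000 and Gm10709. mt-Nd4, a complex I subunit, was at 1389.7, 1241 and 1517 CPM in controls and 1646, 3820.3 and 1311 CPM at 20 µM, while mt-Nd3, a subunit of the same complex, was at 335, 359 and 254 CPM and 373, 84.8 and 351 CPM. Of the 13 mitochondrial transcripts tested, 10 lay above 0 in the comparison with controls, beside 47.2% of all genes. Short transcripts were lower in replicate 2 and long ones higher. The median log2 difference from replicates 1 and 3 was -0.16 in the shortest of 5 equal bins of transcript length and 0.10 in the longest. For the mean of replicates 1 and 3 against controls it was 0.02 and -0.01. Whether transcript length or RNA quality plays a part in the difference was not tested.

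Large housekeeping lists differed between the fits with and without that library. Of all genes 47.2% lay above 0 with it and 48.0% without it. The 13 mitochondrially encoded genes had a median log2 change of 0.55 with it and 0.10 without it. At an unadjusted p below 0.05, 7 of them were higher with it and 0 without it, beside 4.04% and 2.69% of all genes. mt-Co1, a subunit of complex IV, was at 4095, 3778 and 4178 CPM in controls and 5090.2, 8667 and 3768 CPM at 20 µM. Of 77 nuclear genes of oxidative phosphorylation 19 lay above 0 with all libraries and 74 without replicate 2, and the median went from -0.07 to 0.08. Of 78 cytosolic ribosomal protein genes 7 lay above 0 with it and 53 without it (medians -0.16 and 0.02). Rplp0, the stalk protein of the large subunit, was at 1178, 1277 and 1096 CPM against 1225, 754 and 1149.7 CPM, so replicates 1 and 3 lay within the control range and replicate 2 far below. Of 34 proteasome genes 12 lay above 0 with it and 30 without it (medians -0.04 and 0.05). In edgeR 0 genes of these 4 lists passed in either fit. Without replicate 2, 10 of the 77 nuclear genes were higher at an unadjusted p below 0.05 and 0 lower, beside 2.69% and 5.15% of all genes.

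Among 26 atrophy genes 0 passed in edgeR, and the median was -0.02 (0.03 without replicate 2). At an unadjusted p below 0.05, 5 were higher and 1 lower, beside 4.04% and 5.25% of all genes. Fbxo32, the ubiquitin ligase atrogin-1, was at 97.8, 95.4 and 95.6 CPM against 94.1, 87.6 and 95.5 CPM (log2 difference -0.06 ± 0.11, 95% interval -0.29 to 0.17). Trim63, the ligase MuRF1, was at 30.9, 32.9 and 29.4 CPM against 34.4, 22.6 and 34.2 CPM (-0.03 ± 0.14, -0.33 to 0.27). Replicate 2 was the lowest library for both. Foxo1, the transcription factor that drives both ligases, was at 68.0, 67.3 and 71.9 CPM against 67.9, 98.6 and 72.8 CPM, and replicate 2 was its highest library (0.21 ± 0.09, and 0.03 without it). Mstn, or myostatin, which limits muscle growth, was between 0.0267 and 0.177 CPM in the 6 libraries, around the level that a count of 0 allows, and no difference was detectable at this depth.

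Of 21 genes of myogenic regulation and fusion 2 were higher and 0 lower at an unadjusted p below 0.05 with all libraries, and 0 and 3 without replicate 2, with medians of 0.06 and -0.01. The shares of all genes were 4.04% higher and 5.25% lower with all libraries, and 2.69% and 5.15% without replicate 2. Myog, the factor that starts terminal differentiation, was at 659, 727 and 688 CPM against 767, 814 and 735 CPM, all treated libraries above all controls, with a difference of 0.16 ± 0.09 that did not pass (adjusted p = 0.58). Myod1 was at 194, 195 and 199.8 CPM against 195, 214 and 203 CPM, and Mymk, which fuses myoblasts, at 1265, 1218 and 1225 CPM against 1296, 1689 and 1229 CPM, with replicate 2 the highest library of both. Among 34 genes of IGF, insulin and mTOR signalling 4 were higher and 3 lower (median 0.04; 0.02 without replicate 2). Igf1 was at 113, 106 and 113 CPM against 119, 153 and 121 CPM (0.25 ± 0.17, and 0.12 without replicate 2), and Ppargc1a, the coactivator of mitochondrial genes, at 2.83, 2.60 and 2.97 CPM against 2.54, 3.21 and 2.49 CPM.

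Of 31 glucocorticoid targets 4 were higher and 2 lower at an unadjusted p below 0.05 in the absence of dexamethasone (0 and 1 without replicate 2). Of all genes 4.04% were higher and 5.25% lower (2.69% and 5.15% without replicate 2). In 7 of the 31 the groups did not overlap, 4 above and 3 below the controls, beside 4.68% and 7.05% of all genes. The list's median was 0.03 (0.01 without replicate 2). The glucocorticoid-induced gene Fkbp5 was at 22.9, 24.9 and 23.5 CPM against 21.7, 21.6 and 23.0 CPM and Tsc22d3 at 58.3, 58.5 and 57.7 CPM against 62.6, 57.3 and 57.6 CPM, both with overlapping groups. Of 42 cell cycle genes 0 were higher and 1 lower (median -0.04), and of 26 genes of sterol synthesis 0 were higher and 0 lower (median 0.01). Hmgcs1, an early enzyme of that pathway, was at 209, 216 and 215 CPM against 229, 208 and 217 CPM. In edgeR 0 genes of the glucocorticoid, cell cycle, sterol, IGF and myogenic regulator lists passed with all libraries. Cdkn1c, a cell cycle inhibitor of differentiating muscle, was counted in the list of undifferentiated myoblast genes and not among the cell cycle genes. It was at 10.9, 10.5 and 11.0 CPM against 13.6, 17.1 and 14.1 CPM, without overlap, but did not pass (adjusted p = 0.067, and 0.078 without replicate 2). Of 16 genes tested in that myoblast list 4 were higher and 1 lower at an unadjusted p below 0.05, with and without replicate 2. The list's median was -0.001 (0.01 without replicate 2).

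**Figure D4:**
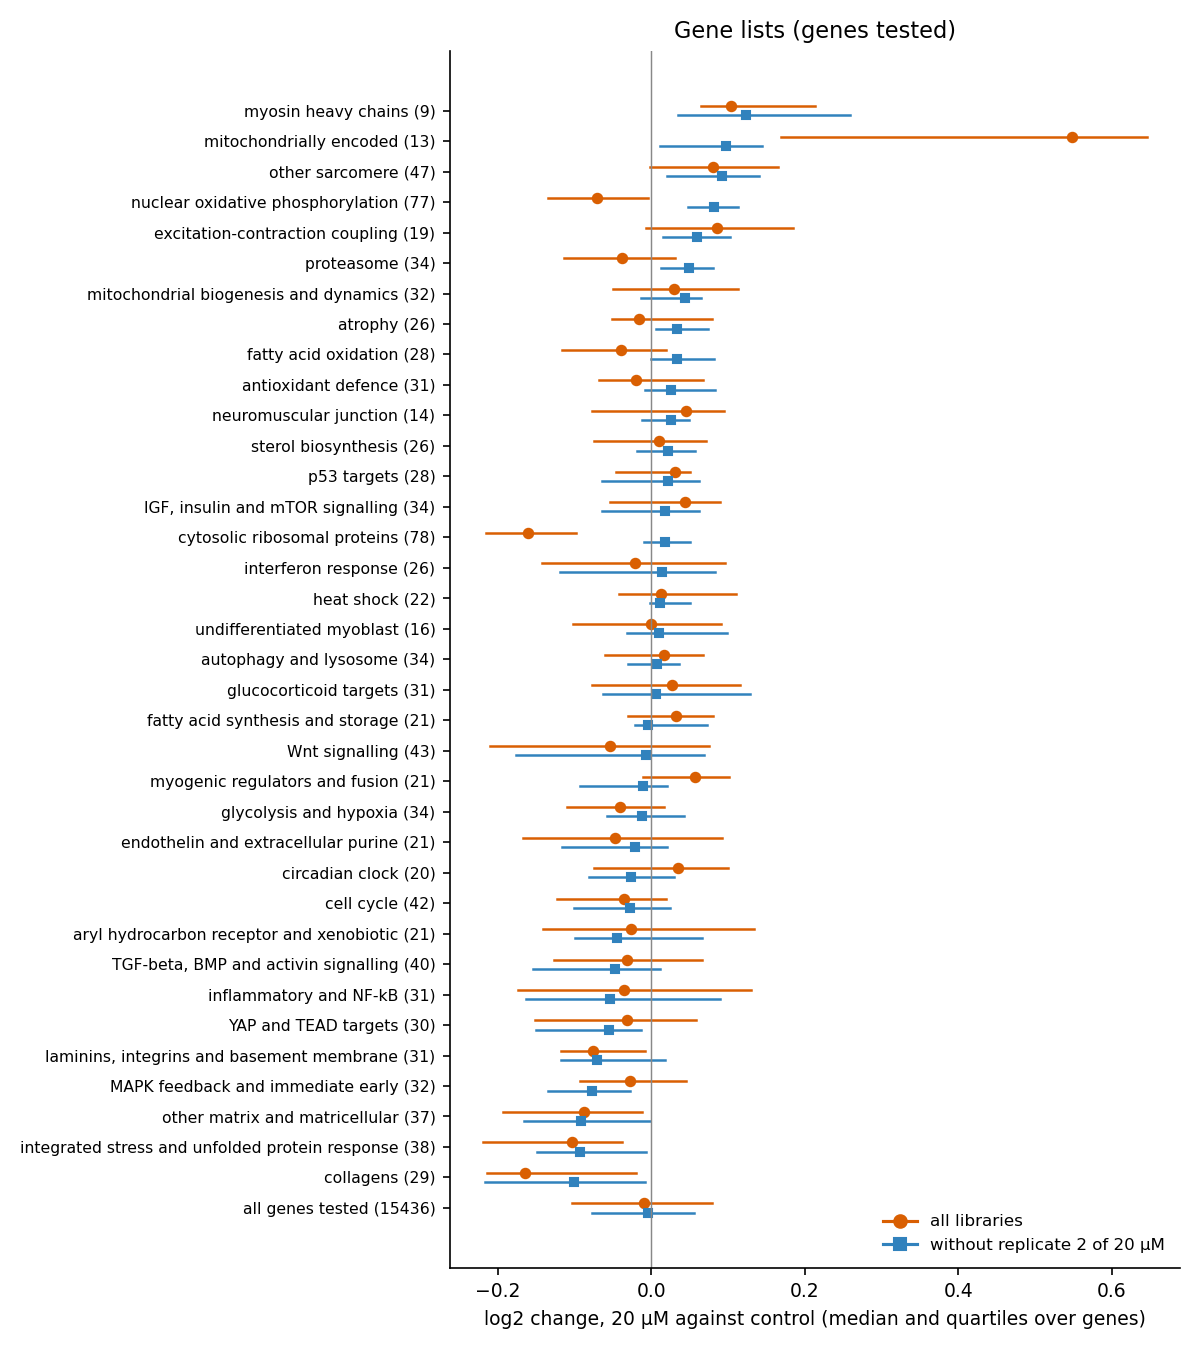
Log2 fold change of 20 µM against control over the genes of each list (horizontal axis; symbols are medians and lines run from the lower to the upper quartile), with all libraries (orange circles) and without 20 µM replicate 2 (blue squares); the number of genes tested is in brackets and the last row is all genes. Myosin heavy chains and other sarcomere genes are above 0 and collagens, stress response and matrix genes below 0 in both fits, while the median moves from 0.55 to 0.10 for mitochondrially encoded genes and from -0.16 to 0.02 for ribosomal protein genes.

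At 10 µM, measured against the same 3 controls, the mean of each of the 16 genes lay between the control mean and the 20 µM mean. Because the controls are shared, this is a description and no second test. Myh8 was at 692, 683 and 681 CPM at 10 µM, so most of its difference from the controls (log2 change 0.40 ± 0.05) was present at the lower dose. Col23a1 was at 13.4, 13.4 and 13.5 CPM (-0.46 ± 0.08) and Edn1 at 2.57, 2.42 and 2.13 CPM (-0.49 ± 0.12), between the groups without overlap with either. Lamb3 was at 49.9, 51.4 and 45.8 CPM (-0.08 ± 0.07), with 1 library inside the control range and the others below it, and Tspan8 at 26.8, 23.7 and 20.5 CPM (-0.09 ± 0.10).

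Tested directly, 20 µM against 10 µM gave 0 edgeR calls, with 1384 genes at an unadjusted p below 0.05 (8.97%), and DESeq2 called 3. The smallest adjusted p was that of Lamb3 (-0.47, adjusted p = 0.077), which alone passed without 20 µM replicate 2 (1 of 15618 genes, 0.0064%; -0.38, 0.013), with 684 genes at an unadjusted p below 0.05 (4.38%). A straight-line trend over 0, 10 and 20 µM in the 9 libraries without dexamethasone was called in 9 of 14946 genes (0.0602%), 2 rising and 7 falling. Leaving out 20 µM replicate 2 raised that number to 151 (0.999%), 42 rising and 109 falling, and with the replicate number as a block it was 1 (0.00669%).

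The same dose was also measured with dexamethasone, in 6 libraries that share none with the comparison above. There 57 genes passed (0.369%), 18 higher (0.117%) and 39 lower (0.253%), with 1351 at an unadjusted p below 0.05 (8.75%). All 16 genes had the same sign as without dexamethasone, where 54.5% of all genes tested did. With dexamethasone 5 of the 16 passed, Myh8, Col23a1, Lamb3, Fbln7 and Axin2, and in 14 of 16 the groups did not overlap (14.9% of all genes tested). The number of calls with dexamethasone ranged from 6 without replicate 2 of the 20 µM group to 224 without its replicate 3. It was 9 without replicate 1 of that group, and 89, 14 and 24 without replicates 1, 2 and 3 of the dexamethasone group. Leaving out 20 µM replicate 2 of the cultures without dexamethasone gave 341 of 15618 genes (2.18%), 119 higher (0.762%) and 222 lower (1.42%). That library is in neither group compared there. The low-count filter, the scaling factors and the shared spread were all estimated again without it, and their parts were not tested.

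Myh8 was at 1323, 1474 and 1443 CPM with dexamethasone alone and 1766, 1782 and 1768 CPM with 20 µM ginsenoside Rc added. The groups did not overlap, and the log2 change was 0.33 ± 0.05 (adjusted p = 0.012). Col23a1 was at 6.02, 7.02 and 5.97 CPM against 3.37, 3.12 and 3.73 CPM, a change of -0.90 ± 0.09 (0.00012) that was larger in size than without dexamethasone. Axin2 was at 19.7, 16.9 and 17.6 CPM against 13.7, 13.4 and 11.5 CPM (-0.49 ± 0.09, 0.023), without overlap. Fbln7 was at 6.84, 8.75 and 9.67 CPM against 11.9, 13.6 and 12.8 CPM (0.60 ± 0.11, 0.023) and Lamb3 at 17.99, 19.9 and 18.8 CPM against 13.6, 14.2 and 15.6 CPM (-0.38 ± 0.08, 0.036), both without overlap. Edn1, itself higher with dexamethasone (log2 change 2.61 against control), was at 21.7, 18.9 and 20.1 CPM against 17.4, 18.2 and 15.4 CPM, a difference of -0.25 ± 0.09 that did not pass (0.28). Plat was at 30.0, 29.9 and 32.1 CPM against 28.8, 28.7 and 32.6 CPM, with overlapping groups.

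In 15 of the 16 genes the change was larger in size without dexamethasone, all but Col23a1, beside 8742 of all 15436 genes tested. The 16 were selected by their change without dexamethasone, so a smaller change in other libraries is partly built in. None of the 16 differences passed the test of the interaction (smallest adjusted p = 0.47). Over all genes the interaction had 0 edgeR calls, 815 at an unadjusted p below 0.05 (5.28%) and a smallest adjusted p of 0.12, and DESeq2 called 1. Without 20 µM replicate 2 it passed for 2 genes (0.0128%), 1 higher and 1 lower (0.0064% each), with 895 at an unadjusted p below 0.05 (5.73%). For Edn1 the interaction, with minus without dexamethasone, was 0.79 ± 0.16 (adjusted p = 0.47, and 0.066 without 20 µM replicate 2). Of the genes called only without replicate 2, Cxcl12, Tgfbr2 and Cyp26b1 also passed with dexamethasone (0.32 ± 0.06, -0.25 ± 0.05 and -0.50 ± 0.09, adjusted p = 0.022, 0.029 and 0.025). Aldh1l2 and Chac1 differed there by -0.08 ± 0.07 and -0.07 ± 0.06. The stress response list had a median of -0.03 with dexamethasone, against -0.10 without it. The 9 myosin heavy chains had a median of -0.07 with dexamethasone and 3 above 0, against 0.10 and 8 without it. For the 47 other sarcomere genes these were 0.03 and 29, against 0.08 and 35. The 29 collagens had a median of -0.16 and 6 above 0 in both comparisons. Differences of the lists with and without dexamethasone were not tested.

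**Figure D5:**
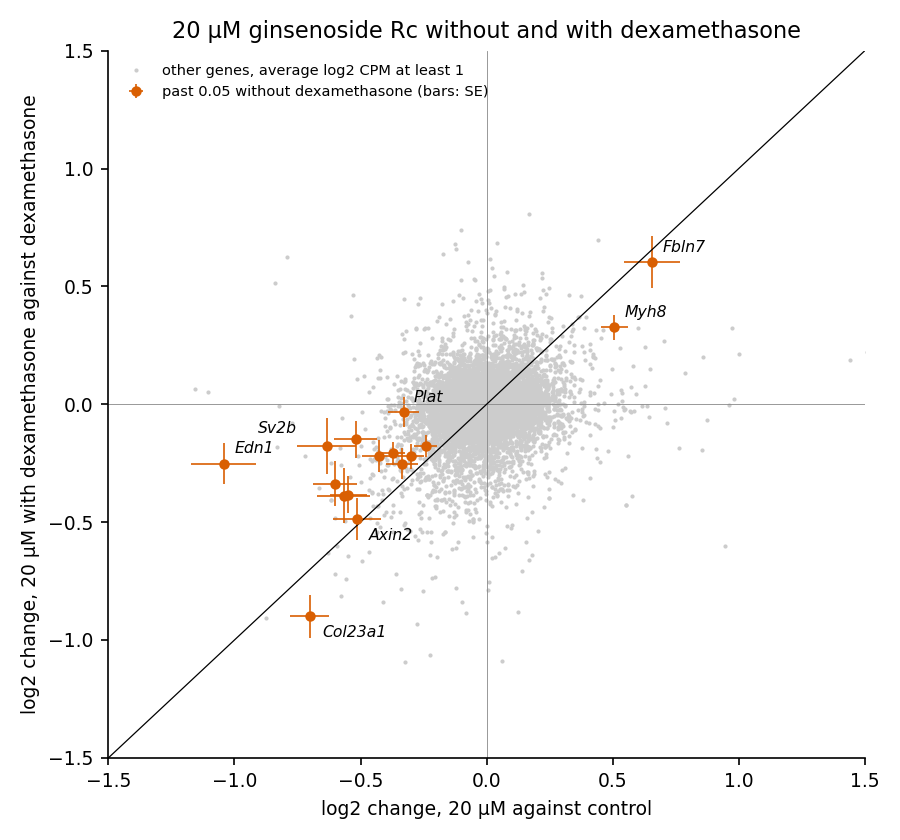
Log2 fold change of 20 µM ginsenoside Rc against control (horizontal axis) and of 20 µM ginsenoside Rc with dexamethasone against dexamethasone alone (vertical axis) for genes averaging 1 log2 CPM or more; orange points with standard error bars are the 16 genes past the threshold without dexamethasone, grey points the other genes, and the diagonal marks equal changes, with 7 of 11786 genes outside the axes. All orange points are in the lower left or upper right of the plot, most of them nearer to 0 on the vertical axis, and Col23a1 (-0.70 and -0.90) is the exception. The orange genes were selected by the comparison on the horizontal axis.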

How the data were processed

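Poly-A RNA of C2C12 myotubes was sequenced as 100 bp paired ends with a directional kit, per the labels' protocols. FastQC 0.11.9, Trim Galore 0.6.5, STAR 2.7.3a, RSEM 1.3.3 and the build GRCm38 (mm10) are named in the submitters' processing notes, with no role or order. No label states the annotation or whether strand was used in counting, and values of overlapping, antisense and closely related genes (myosin heavy chains, Serpinb6b, Ly6c2) are therefore uncertain. The authors deposited 1 table of RSEM expected counts for 48795 gene IDs, of which 9.27% of values were not whole; symbols and coordinates came from GENCODE M21, which named 48435 IDs.

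Expected counts were rounded, filtered with filterByExpr and normalized with TMM factors. All 18 libraries entered 1 model with a mean for each group, fitted with edgeR 4.0.16 (R 4.3.3; robust quasi-likelihood) and tested with glmQLFTest and Benjamini-Hochberg adjustment over all genes at 0.05. The fit was repeated on 17 libraries without 20 µM replicate 2. CPM are TMM scaled; a count of 0 allows 3 counts (0.0662 to 0.0822 CPM), which covers counting error only. Genes named were all that passed, up to 15 with the smallest p that passed without that replicate and averaged 1 log2 CPM or more, the 2 smallest p and 3 most abundant of each list described, a set of muscle and Wnt genes, the 5 highest and 5 lowest in that replicate, and those passing with dexamethasone or leading the interaction and the dose difference. The members, lists and tests were chosen with earlier results of these data known. Replicate numbers were not taken to pair the groups. Alternatives used DESeq2 1.42.0, limma 3.58.1, other scaling, filters, libraries and a replicate block. The fit was tested on simulated counts. Of the genes that passed only without that replicate, 1 is counted but not reported here.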

Additional observations from a re-analysis of the deposited data

Results flagged for a closer look

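With all 18 libraries the 20 µM effect with dexamethasone differed from that without it in 0 genes by edgeR (815 at an unadjusted p below 0.05) and in 1 by DESeq2. When 20 µM replicate 2 was left out, the difference between the effects passed for Lgr6 and Vgll2, 2 of 15618 genes (0.0128%). Lgr6, an R-spondin receptor, had a difference of -0.83 (log2, with minus without dexamethasone; adjusted p = 0.025). It was at 10.1, 7.92 and 8.15 CPM with dexamethasone alone and 4.22, 4.15 and 4.16 CPM with 20 µM added, against 20.5, 16.9 and 19.9 CPM in controls and 15.3, 16.6 and 17.1 CPM at 20 µM alone. With dexamethasone the groups did not overlap, and without it they did. Vgll2, a cofactor of TEAD factors in muscle, had a difference of 0.76 (adjusted p = 0.025). It was at 8.07, 7.62 and 9.07 CPM against 11.5, 11.0 and 12.2 CPM with dexamethasone, and at 13.6, 13.4 and 13.6 CPM in controls and 11.6, 20.4 and 10.8 CPM at 20 µM alone. For Vgll2 the omitted library was the highest of the group, and with it the adjusted p was 0.12 for Lgr6 and 0.88 for Vgll2.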

How the results depend on the processing

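Of the 16 genes called at 20 µM none changed sign under any of 15 settings. All 16 passed with DESeq2, voom with quality weights and no composition scaling, 15 without the low-count filter, 14 with median-ratio factors, 2 with the 9 libraries without dexamethasone (Myh8 and Col23a1), 2 against a 1.2-fold change (Col23a1 and Edn1) and 0 with only the 6 compared libraries. Calls for 20 µM against control numbered 101 by DESeq2, 147 by voom, 28 without the filter, 0 with the compared groups only, 5 with the libraries without dexamethasone and 2 against a 1.2-fold change, and 5 to 44 with 1 library left out. With the replicate block they numbered 12, and 11 of the 16 were kept. Deviations of same-numbered libraries correlated at -0.06, -0.41 and -0.30 between control and 20 µM, 0.02, -0.13 and -0.07 between 10 and 20 µM, and 0.23, -0.09 and 0.13 with dexamethasone, so in no comparison did every pair exceed 0.1 and the numbers were not taken as a pairing.

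Without 20 µM replicate 2 the calls numbered 94 by DESeq2, 102 with the compared groups only and 67 with the replicate block. For 20 µM against 10 µM DESeq2 called 3, the replicate block 0, and fits without 1 library 0 to 1. With dexamethasone DESeq2 called 251, the replicate block 62, fits without 1 library of those groups 6 to 224, and the fit without 20 µM replicate 2, added after seeing the data, 341. For the interaction DESeq2 called 1 and fits without 1 library 0 to 2. The trend was called in 151 genes without 20 µM replicate 2 and in 1 with the replicate block. Members called over the lists numbered 8, and 4 to 19 with 1 library left out. With 3 libraries a group and a median standard error of 0.092 (0.076 without replicate 2), small changes of single genes were mostly not detectable. The causes of these differences between settings were not tested.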
